A study of Mus musculus with 2 samples.

Results

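The Dlk1-Meg3-Dio3 imprinted domain of mouse chromosome 12 was examined for DNA methylation in myotubes after knockdown of the long noncoding RNA H19. It comprised 6 genes, Dlk1, Meg3, Rtl1, Rian, Mirg and Dio3, and the stretch between Dlk1 and Meg3. Members were the CpG cytosines that had at least 5 reads in each library, lay outside CCGG and TCGA sites (cut by MspI and TaqαI to make the libraries) and fell in a gene body, within 1 kb of a gene start or between Dlk1 and Meg3. The rule took 406 cytosines at 244 CpGs, of 1850635 that met the read and site conditions in the genome. The sequence of these regions holds 6342 CpG cytosines, of which 707 had enough reads in both libraries and 301 of those lay in a cut site.

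The myotubes had been differentiated from the mouse C3H myoblast line and were harvested 48 h after transfection with control siRNA (siCon) or an siRNA against H19 (siH19). Each group was 1 library, so every test compares 2 libraries, not the conditions, and every interval covers counting error only. The assay was reduced representation bisulphite sequencing (RRBS), in which unmethylated cytosine is read as T, and the methylation level is the percentage of reads that kept C. Neither library separates the parental alleles, and the H19 RNA level was not analysed here. The siCon library summed to 104999613 cytosine reads and the siH19 library to 106372792, and the median depth of the 406 cytosines was 19 reads in siCon and 21 in siH19.

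In an imprinted domain, the copy of a gene inherited from 1 parent is silent. Here Dlk1, Rtl1 and Dio3 are expressed from the paternal chromosome, and the noncoding Meg3, Rian and Mirg, which carry most of the domain's small RNAs, from the maternal one. The choice is set by a germline differentially methylated region between Dlk1 and Meg3 (the IG-DMR), methylated on the paternal chromosome in sperm and kept so by ZFP57, a zinc-finger protein that binds methylated TGCCGC. The Meg3 promoter gains paternal methylation later in development. A region methylated on the paternal copy alone reads near the middle of the scale when the alleles are not separated. The domain is active in myogenic cells, where its miRNAs and Dlk1 take part in growth and differentiation.

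The sequences below show where the central measurements lie, read from the plus strand of GRCm38, with every CpG that holds a measured cytosine in capitals. The Meg3 start (its first transcribed base is base 251) and the first intron are shown because CpGs near the middle of the scale and CpGs near its top lay within 1 kb of each other.
Meg3 start, chr12:109540751-109541050: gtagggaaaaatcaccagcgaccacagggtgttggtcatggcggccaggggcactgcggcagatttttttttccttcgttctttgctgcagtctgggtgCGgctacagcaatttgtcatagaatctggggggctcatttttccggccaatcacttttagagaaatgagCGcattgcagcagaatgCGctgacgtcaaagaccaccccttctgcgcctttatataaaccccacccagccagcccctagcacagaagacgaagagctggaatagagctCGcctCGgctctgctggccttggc
Meg3 first intron, chr12:109541580-109541615: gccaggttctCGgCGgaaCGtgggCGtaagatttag
The Dio3 window is the 300 bases of that promoter with the most measured cytosines, 71, and holds 7 of the 9 strongly changed cytosines of the promoter. It begins -499 bases from the start of Dio3.
Dio3 promoter, chr12:110278569-110278868: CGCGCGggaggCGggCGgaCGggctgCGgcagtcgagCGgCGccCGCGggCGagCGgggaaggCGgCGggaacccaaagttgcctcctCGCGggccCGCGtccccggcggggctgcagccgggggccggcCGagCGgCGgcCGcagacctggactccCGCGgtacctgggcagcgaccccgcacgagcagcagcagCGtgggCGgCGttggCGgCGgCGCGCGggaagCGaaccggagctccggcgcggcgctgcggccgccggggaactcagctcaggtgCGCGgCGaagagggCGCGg
In the gap, the first window below had the most measured cytosines, the second a mixture of extremes, and the third was the measured stretch nearest upstream of the motif cluster.
Dlk1 to Meg3 gap, chr12:109493238-109493537: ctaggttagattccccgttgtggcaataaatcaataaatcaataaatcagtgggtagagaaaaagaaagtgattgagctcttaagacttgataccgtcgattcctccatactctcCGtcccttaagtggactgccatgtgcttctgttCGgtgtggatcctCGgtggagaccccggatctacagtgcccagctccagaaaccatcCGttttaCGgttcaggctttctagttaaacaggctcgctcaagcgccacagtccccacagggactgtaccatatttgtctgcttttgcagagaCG
Dlk1 to Meg3 gap, mixed stretch, chr12:109509077-109509187: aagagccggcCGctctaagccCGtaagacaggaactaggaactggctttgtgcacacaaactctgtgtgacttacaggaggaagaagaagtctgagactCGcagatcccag
Dlk1 to Meg3 gap, nearest to the motif cluster, chr12:109526654-109526773: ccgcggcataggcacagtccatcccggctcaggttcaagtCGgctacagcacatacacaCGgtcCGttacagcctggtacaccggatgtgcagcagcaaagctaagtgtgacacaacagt
The last stretch of the gap held 5 copies of the ZFP57 motif, which the capitals mark here in place of CpGs.
ZFP57 motif cluster, chr12:109528276-109528475: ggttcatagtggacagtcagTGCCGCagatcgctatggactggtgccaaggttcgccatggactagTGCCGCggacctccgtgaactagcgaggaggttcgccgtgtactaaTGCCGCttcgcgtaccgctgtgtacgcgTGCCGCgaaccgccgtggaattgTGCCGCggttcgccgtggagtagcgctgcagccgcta

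Over the 406 cytosines together, methylation did not move detectably. The summed level was 43.3% in siCon (95% Wilson interval 42.3 to 44.3%, 9904 reads) and 44.1% in siH19 (43.2 to 45.1%, 10850 reads). The difference was 0.832 percentage points, with a Newcombe 95% interval from -0.520 to 2.18 points. A summed level also moves with the cytosines that happen to be read more deeply in a library. A second measure therefore gave each cytosine the same weight in both libraries (the Mantel-Haenszel difference, called matched-weight below) and came to -0.0325 points. Higher in siH19 were 182 cytosines, lower were 189, and 35 had the same level.

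Cytosines at intermediate levels were frequent in the domain and in the sequence on either side of it. In siCon, 52.7% of the 406 cytosines had an intermediate level, from 20 to 80%, and in siH19 54.2% did. Over all 1850635 cytosines the shares were 25.8% and 26.2%, and over all promoter cytosines 13.3% and 13.5%. In both libraries at once, 164 members stood from 20 to 80%, 79 under 20% and 57 over 80%. Of the 178 cytosines measured between Begain and Dlk1, outside the domain, 55.1% were intermediate in siCon and 61.2% in siH19, and of the 177 between Dio3 and Ppp2r5c, 46.3% and 46.9%. Within the domain, none crossed from under 20% to over 80% or the reverse. The 2 libraries differed by 12.6 points on average at a member, whatever the sign, and by 6.77 points over all cytosines. These are descriptions with no test, since neighbouring cytosines share reads.

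**Figure D1:**
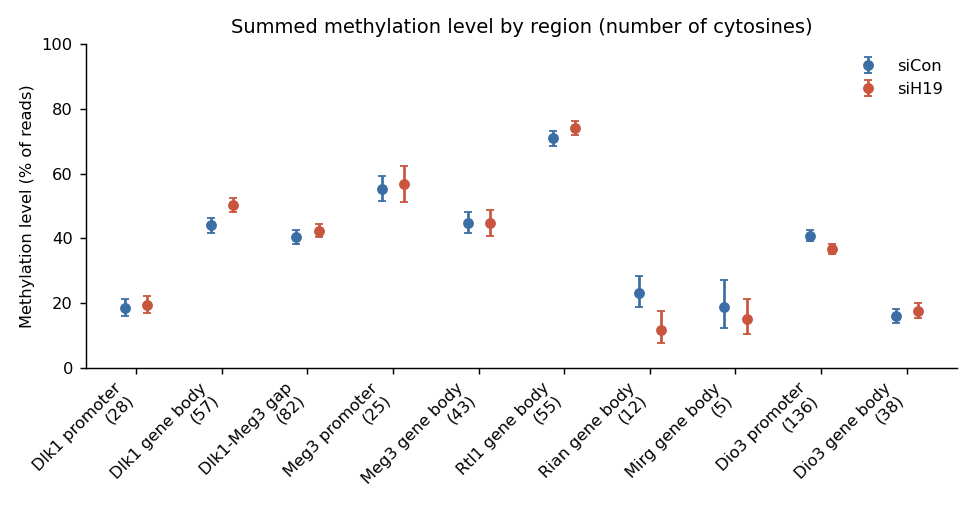
Summed methylation level (percentage of reads that kept C) of each measured region of the domain in siCon (blue) and siH19 (red), with 95% Wilson intervals for counting error and the number of cytosines in brackets. Rtl1 is highest at 70.9% and 74.1%, the Dlk1 promoter, the Mirg gene body and the Dio3 gene body lie under 20% in both libraries, and the intervals of the 2 libraries overlap in 7 of the 10 regions, not in the Dlk1 gene body, the Rian gene body or the Dio3 promoter.

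The gap between Dlk1 and Meg3 (chr12:109463337-109541000, 77664 bases) summed to near the middle in both libraries. The annotation used gives no boundaries of the IG-DMR, so this level describes the whole gap, not the IG-DMR. Measured cytosines lay in 22 of its 78 tiles of 1 kb, and tiles ranged widely. With 2 cytosines each, chr12:109503001-109504000 read 0% in siCon and 6.67% in siH19, and chr12:109481001-109482000 read 95.7% and 88.9%. Its 82 cytosines came to 40.3% in siCon (38.2 to 42.5%, 1988 reads) and 42.3% in siH19 (40.3 to 44.3%, 2397 reads). The difference of 1.96 points had an interval from -0.968 to 4.88 points (two-sided Fisher's exact test on summed reads, p = 0.196). The matched-weight difference was 1.31 points, and with at least 10 reads asked of each cytosine the summed difference was -0.0525 points. Of the 82, 45 had an intermediate level in siCon and 43 in siH19.

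Along the gap, 7 of 78 tiles of 1 kb had at least 5 measured cytosines, and none was called different (adjusted p under 0.05 over all tiles and at least 10 points). Of all 22 tiles tested in the domain none was called, against 3.33% of 83471 tiles in the genome. An unadjusted p under 0.05 was met by 4 on summed reads and by 2 in the Cochran-Mantel-Haenszel test. The share of all tiles that met those looser cuts was not taken, so these counts have no background. From Dlk1 towards Meg3, the tile at chr12:109470001-109471000 read 43.3% in siCon and 49.3% in siH19. The next, at chr12:109493001-109494000, read 39.7% and 35.4%, and 9 of its 12 cytosines were lower in siH19, the matched-weight difference being -9.63 points. The tile at chr12:109498001-109499000 read 22.2% (63 reads) and 43.6% (78 reads), a difference of 21.4 points with an interval from 5.69 to 35.3 points and an adjusted p of 0.120 by Fisher's exact test. The remaining 4, at chr12:109506001-109507000, chr12:109509001-109510000, chr12:109526001-109527000 and chr12:109540001-109541000, stood between 51.0 and 66.7% in siCon and between 55.1 and 68.1% in siH19. Every one of these 7 summed levels was intermediate in both libraries.

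A summed level in the middle was not always made of cytosines in the middle. In the mixed stretch printed above, the 4 cytosines of the first pair of capital CpGs had levels from 86.7 to 100% in siCon and from 81.2 to 100% in siH19. The last CpG had 0 methylated reads over both strands, of 31 reads in siCon and 30 in siH19. That count allows a level of up to 9.68% and 10%. CpGs were placed by a reference genome of another mouse strain. Whether this one is a CpG in the C3H line was not tested. The tile came to 63.4% and 61.8% with no intermediate cytosine in either library. By contrast, at the 3 CpGs of the stretch nearest upstream of the motif cluster, 5 of 6 cytosines were intermediate in siCon and 4 in siH19. Their summed levels were 66.7% of 66 reads and 68.1% of 270 reads.

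The densest ZFP57 motifs of the gap held no measured cytosine. TGCCGC, searched on both strands, occurred 18 times in the gap, in 11 of the 78 tiles (14.1%), against 5.67% of all 1 kb tiles of the genome free of unknown bases. The 5 copies printed above lie on the plus strand, in a stretch that begins at -12725 bases from the start of Meg3, and 5 or more copies in 1 tile occurred in 0.00763% of the genome's tiles. No copy in the gap held a cytosine covered in both libraries, at any depth. The nearest measured cytosines stood 1557 bases before the printed stretch and 1057 bases after it, and the latter CpG, -11469 bases from the start of Meg3, went from 28.2% to 16.7% on the plus strand and from 17.9% to 66.7% on the minus strand, the siH19 levels resting on 12 and 6 reads. A motif match is a description of the letters, not a binding site.

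**Figure D2:**
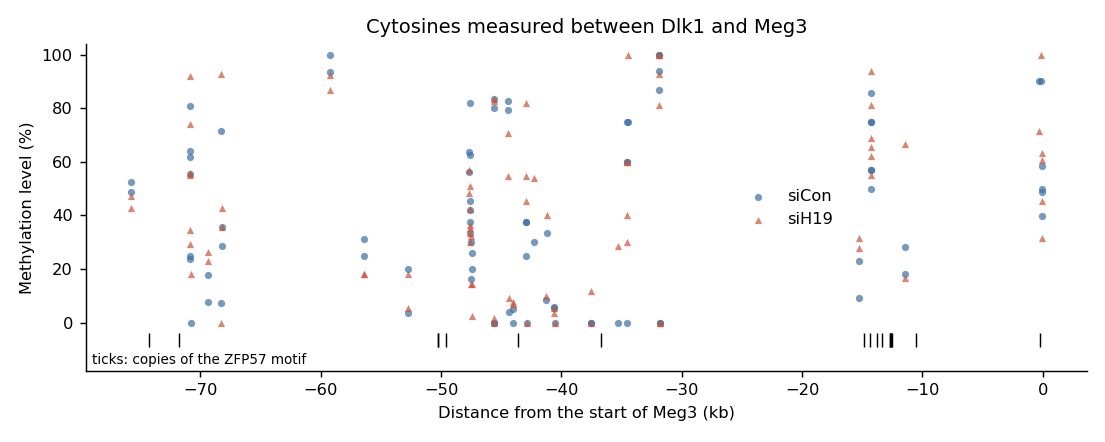
Methylation level (%) of each of the 82 cytosines between Dlk1 and Meg3 in siCon (blue circles) and siH19 (red triangles), against distance from the start of Meg3 (kb), with ticks for the 18 copies of the ZFP57 motif TGCCGC. Levels run from 0 to 100% in both libraries, and the motif cluster that begins -12725 bases from Meg3 has no measured cytosine over it.

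In summed reads, the Meg3 promoter stood near the middle of the scale in both libraries. Meg3 (chr12:109541001-109571726, plus strand) is the maternally expressed noncoding RNA that borders the gap. Within 1 kb of its start, 25 cytosines came to 55.4% in siCon (51.4 to 59.2%, 625 reads) and 56.9% in siH19 (51.3 to 62.3%, 306 reads). The difference was 1.5 points with an interval from -5.29 to 8.20 points (two-sided Fisher's exact test, Benjamini-Hochberg adjusted p = 0.868 over 19476 promoters). The matched-weight difference was -0.875 points. The mean of the cytosine levels, each counted once, was higher than the sum, at 70.8% in siCon and 64.4% in siH19, and differed by -6.41 points.

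Within that window the level was not even. In the 300 bases around the start printed above, 9 cytosines summed to 47.5% of 463 reads in siCon and 51.6% of 215 reads in siH19. At the CpG at base 186 of that sequence, the plus and minus cytosines read 58.3 and 50% in siCon and 63.2 and 60.6% in siH19. In the first intron, a further 8 cytosines at 4 neighbouring CpGs came to 93.0% and 93.2%, resting on 71 and 44 reads. The whole Meg3 body held 43 cytosines at 44.8% and 44.6%, a difference of -0.224 points (interval -5.33 to 4.91 points, Fisher's exact test, adjusted p = 1 over 23274 gene bodies). No Meg3 cytosine was strongly changed.

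Methylation of Dlk1 was low near its start and high at most cytosines measured beyond its coding sequence, in both libraries. Dlk1 (chr12:109452823-109463336, plus strand) encodes a membrane protein of the Notch ligand family that restrains differentiation of fat precursors. All 28 promoter cytosines lay from 500 to 999 bases downstream of the start and none was measured at the start itself. They came to 18.4% in siCon (15.9 to 21.1%, 844 reads) and 19.5% in siH19 (17 to 22.2%, 882 reads), and the difference of 1.14 points did not pass Fisher's exact test (adjusted p = 0.804). The strands differed in opposite directions: 6 plus-strand cytosines went from 38.2% to 20.4%, all 6 lower in siH19, and 22 minus-strand cytosines from 14.5% to 19.2%, with 16 higher and 5 lower. This split was made after the values were seen and is given with no test. The last coding exon (chr12:109459607-109460357) stood in the middle, with 18 cytosines at 57.9% and 54.2%. Beyond the coding sequence, 11 cytosines reached 91.0% and 93.8%, with 10 of them over 80% in each library. The measured cytosine nearest the end, at 109462842, was lower, with 1 of 12 reads methylated in siCon and 2 of 6 in siH19.

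The measured stretch of the last coding exon is given here because its 9 CpGs spanned most of the scale, again with the measured CpGs in capitals.
Dlk1 last coding exon, chr12:109459834-109460018: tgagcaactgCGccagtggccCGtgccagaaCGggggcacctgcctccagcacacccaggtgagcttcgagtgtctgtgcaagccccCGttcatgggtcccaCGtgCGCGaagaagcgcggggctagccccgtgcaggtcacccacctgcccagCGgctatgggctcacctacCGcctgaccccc
The plus cytosine of the third CpG from the left read 26.3% in siCon and 25.5% in siH19. Its counterpart at the seventh, base 109, read 100% and 88.2%. Over the whole Dlk1 body the summed level went from 44.0% to 50.2%, a difference of 6.28 points (interval 3.08 to 9.47 points, Fisher's exact test, adjusted p = 0.000679). The matched-weight difference was 0.560 points, and the body did not reach the 10 points needed for a call. Reads beyond the first kb, where levels were high, numbered 835 in siCon and 1204 in siH19, against 844 and 882 in the first kb.

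Rtl1 was the most methylated gene of the domain. Rtl1 (chr12:109589193-109600330, minus strand) is a retrotransposon-derived gene needed in placenta and fetal muscle, and the maternal strand opposite to it carries miRNAs, Mir431 and Mir433 among them, that cut its transcript. Its 55 cytosines came to 70.9% in siCon (68.5 to 73.2%) and 74.1% in siH19 (71.8 to 76.3%), with an adjusted p of 0.127 by Fisher's exact test and a matched-weight difference of 0.692 points. In the coding sequence, 53 cytosines stood at 74.0% and 74.7%. No cytosine within 1 kb of the Rtl1 start was covered in either library.

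The hairpins of Mir431 and Mir433 are shown as the only miRNA hairpins inside a listed gene body with at least 3 measured cytosines, with measured CpGs in capitals.
Mir431 hairpin, chr12:109590447-109590537: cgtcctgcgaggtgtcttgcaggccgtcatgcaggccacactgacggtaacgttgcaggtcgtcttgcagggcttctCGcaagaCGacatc
Mir433 hairpin, chr12:109591715-109591838: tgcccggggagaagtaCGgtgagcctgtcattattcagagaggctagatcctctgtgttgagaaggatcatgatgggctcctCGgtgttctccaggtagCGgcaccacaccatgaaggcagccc
The 4 cytosines of Mir431 read 91.8% of 97 reads in siCon and 94.9% of 59 reads in siH19. The 3 of Mir433 read 86.7% of 75 reads and 75.8% of 66 reads, a difference of -10.9 points with an interval from -23.9 to 2.00 points. The middle CpG of Mir433 accounted for most of it, with 23 of 25 reads methylated in siCon and 12 of 22 in siH19 (Fisher's exact test, p = 0.00604), while its neighbours went from 88 to 86.4% and from 80 to 86.4%.

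Rian was the 1 member region past the threshold. Rian (chr12:109603940-109661716, plus strand) is the host transcript of the domain's box C/D snoRNAs. Its 12 cytosines came to 23.1% of 294 reads in siCon (18.7 to 28.3%) and 11.7% of 162 reads in siH19 (7.64 to 17.6%), a difference of -11.4 points (interval -18 to -4.04 points, two-sided Fisher's exact test, adjusted p = 0.00976). Of the 12, 9 were lower in siH19 and 2 higher. It made 1 call among 6 gene bodies, where 8.44% of all 23274 gene bodies were called. The matched-weight difference was -5.81 points, and the call was lost by the Cochran-Mantel-Haenszel and quasi-binomial tests. A single exonic cytosine went from 25 of 25 methylated reads to 5 of 7. Without it, a step added after the values were seen, the remaining 11 came to 16% and 9.03%, a difference of -6.95 points with an interval from -13.0 to -0.166 points. With at least 10 reads asked of each cytosine the difference was -2.08 points. Cytosines at 109638655 and 109638656, near 0 in both libraries, gave 90 and 29 of the siCon reads and 38 and 6 of the siH19 reads. They lowered the summed level of both libraries.

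Mirg, the miRNA host gene that closes the maternal transcripts (chr12:109729764-109749460, plus strand), held 5 measured cytosines. They came to 18.7% of 107 reads in siCon and 15% of 173 reads in siH19, a difference with an interval from -13.2 to 5.06 points (Fisher's exact test, adjusted p = 0.662). In or within 500 bases of the hairpin of Mir485 were 4 of the 5, at 9.2% in siCon and 9.68% in siH19, and the last lay in that of Mir496a, at 60% and 61.1%. The Rian promoter had no cytosine covered in both libraries, and the 4 such cytosines of the Mirg promoter all lay in cut sites, so that the promoters of Rtl1, Rian and Mirg gave no value.

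The Dio3 promoter held 136 of the 406 members, 9 of the 13 strongly changed cytosines (defined below) and 13 of the 30 with an unadjusted Fisher p under 0.05. Dio3 (chr12:110279068-110281097, plus strand) is a single-exon gene for the deiodinase that inactivates thyroid hormone, and the window around its start holds 458 CpG cytosines, the most of the 6 promoters. The 136 cytosines of the promoter came to 40.8% in siCon (39.0 to 42.5%, 2978 reads) and 36.8% in siH19 (35.2 to 38.3%, 3663 reads). The difference of -3.99 points (interval -6.35 to -1.64 points) had an adjusted p of 0.00909 by Fisher's exact test but did not reach 10 points. The matched-weight difference was -1.38 points, and with at least 10 reads per cytosine the sign turned, to 2.03 points. Of the 136, 73 were lower in siH19 and 62 higher.

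Methylation was highest just upstream of the start and fell into the gene. In bins of 250 bases, levels in siCon went from 25.1% at -1000 to -751 bases from the start to 41.3%, 52.6% and 62.4% in the last bin before the start, and in siH19 from 28.9% to 23.4%, 48.8% and 52.9%. Downstream, the first 250 bases read 23.5% and 23.8%. The gene body as a whole, with 38 cytosines, read 15.9% and 17.6%, a difference of 1.67 points (interval -1.47 to 4.85 points, Fisher's exact test, adjusted p = 0.457). In the coding sequence 16 cytosines came to 28.3% and 28.8%. Of these bins, the one from -750 to -501 bases differed most between the libraries in summed reads, by -17.9 points. With matched weights it differed by -5.06 points, and the last bin before the start differed more, by -5.94 points.

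Closer to the start, the strands of the same CpGs differed between the libraries in opposite directions. At 15 CpGs of the printed window (plus-strand cytosines at chr12:110278699-110278797), the plus-strand cytosines summed to 54.0% in siCon and 34.3% in siH19, and all 15 were lower in siH19. The minus-strand cytosines of the same CpGs summed to 31.6% and 51.7%, and 13 of 15 were higher. About 19 and 23 reads per cytosine lay behind the plus strand, and 7 and 12 behind the minus strand. At 10 minus-strand cytosines at chr12:110278556-110278596, resting on about 19 and 8 reads, the level went from 61.0% to 34.2%. These stretches were picked because each holds a strongly changed cytosine, so their differences are given with no test. The other such stretches of the Dio3 promoter differed by 12.2, 1.38 and -27.5 points. The stretches were delimited in part by near-equal depth, so that likeness is no result. Neighbouring cytosines may share reads, so the counts of 15 and 13 are not of independent cytosines.

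**Figure D3:**
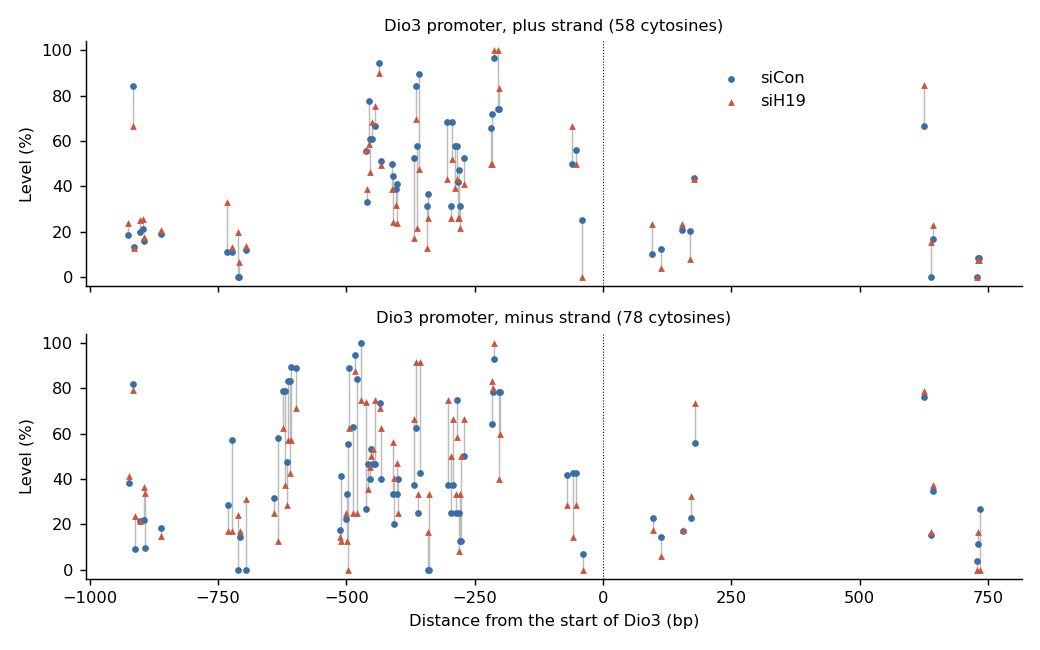
Methylation level (%) of the 136 cytosines of the Dio3 promoter in siCon (blue circles) and siH19 (red triangles) against distance from the start of Dio3 (bp), by strand, with grey lines joining the libraries. In the run that begins -369 bases from the start all 15 plus-strand cytosines are lower in siH19, while 13 of the 15 minus-strand cytosines of the same CpGs are higher. The run was picked because it holds strongly changed cytosines, and its cytosines may share reads, so these counts are not of independent cytosines.

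Strongly changed cytosines, those with a Fisher p under 0.05 and a difference of at least 33 points, numbered 13 of the 406 members (3.2%), against 0.986% of all cytosines. Higher in siH19 were 4 (0.985%, against 0.519%) and lower were 9 (2.22%, against 0.467%). An unadjusted p under 0.05 alone was met by 30 members (7.39%), against 2.53% of all cytosines. Among cytosines from 20 to 80% over both libraries, 13 of 227 members were strongly changed (5.73%), against 3.25% of the 482852 in the genome, a class into which a strong change itself tends to place a cytosine. No member had an adjusted p under 0.05.

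The 13 cannot be counted as 13 separate events. They fell in 10 runs. A run was set as cytosines on 1 strand, at most 50 bases apart, with depths within 1 read of their neighbours in each library. Cytosines of a run may share reads. The Dio3 promoter held 9 of the 13 in 6 runs, the gap 2, and Dlk1 and Rtl1 1 each. Of the 8 whose opposite-strand partner was measured, the partner moved the same way at 2. Only 1 CpG was strongly changed on both strands, in the Dio3 promoter with its plus-strand cytosine at 110278710, and there the plus strand went from 89.5% to 47.8% while the minus strand went from 42.9% to 91.7%.

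The 3 gains in siH19 with the lowest p were all at minus-strand cytosines. They lay at 110278607 in the Dio3 promoter, at 109453522 in an exon of Dlk1 and in the gap. The last belongs to the measured CpG nearest downstream of the motif cluster, described above. The Dio3 cytosine went from 4 of 15 to 23 of 31 methylated reads (p = 0.00368 by Fisher's exact test), while its partner read 55.6 and 56.1%. The Dlk1 cytosine went from 5 of 25 to 7 of 10 reads. The 3 losses with the lowest p were the plus-strand cytosine at 109493386 in the gap, the Mir433 cytosine above and a minus-strand cytosine at 110278589 in the Dio3 promoter. The gap cytosine went from 81.8% to 42.4% and its partner from 62.5% to 51.0%. The Dio3 cytosine went from 84.2% of 19 reads to 25% of 8 reads.

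**Figure D4:**
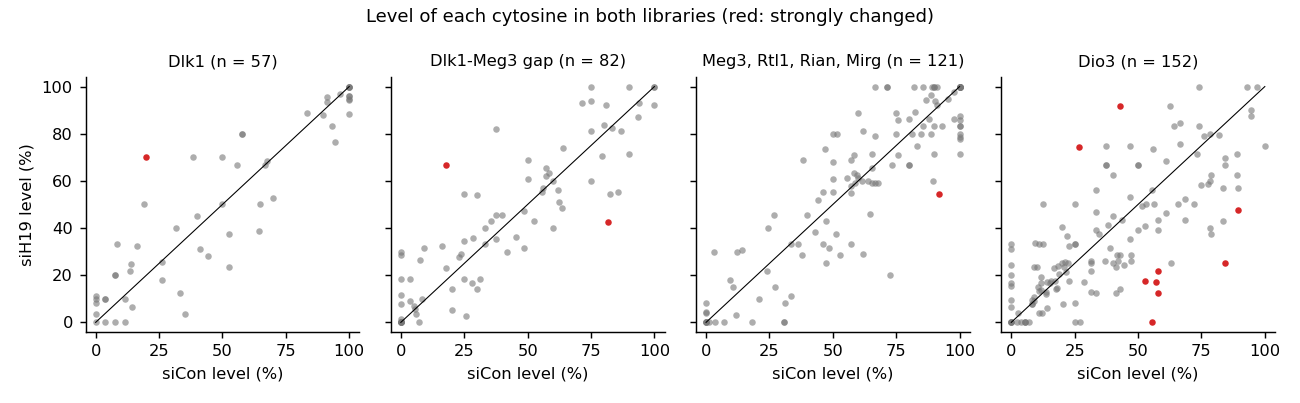
Level (%) of each member cytosine in siCon (horizontal) and siH19 (vertical), by part of the domain, with the line of equal levels and the 13 strongly changed cytosines in red. The points spread across the whole scale along the line, 9 of the 13 red points are in the Dio3 panel, and the 6 cytosines just before the Meg3 start appear in both the gap and the Meg3 panels.

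The spread between strands within 1 library was close to that between the libraries. At the 162 CpGs of the domain measured on both strands, the plus and minus levels differed by 11.6 points on average in siCon and 12.2 points in siH19. Between the libraries, the same plus cytosines differed by 11.2 points and the minus cytosines by 11.9 points. Both strands were higher in siH19 at 31 CpGs, both lower at 31, and the strands went opposite ways at 75. Over the 755414 such CpGs of the genome, the values were 6.77 and 6.48 points between strands and 6.14 and 6.13 points between libraries. In the Dlk1 promoter the strands stood 29.9 points apart on average over 6 CpGs in siCon, and 8.71 points in siH19.

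Of the 3 measured promoters, none was called by Fisher's exact test, against 2.52% of all 19476 promoters. An unadjusted p under 0.05 was met by 1, Dio3, on summed reads and by none in the Cochran-Mantel-Haenszel or quasi-binomial test. The share of all promoters that met those looser cuts was not taken. The 3 promoters were compared by level as well. They kept their order in both libraries, Meg3 above Dio3 above Dlk1, with intervals that did not overlap between neighbours in either library. In summed reads, Meg3 and Dio3 stood from 20 to 80% in both libraries, as did 22.7% of all promoters, and Dlk1 under 20%, as did 67.5%. The mean of the Dlk1 cytosine levels was above 20%, at 21.0% in siCon and 25.3% in siH19, and none of those cytosines lay at the start itself.

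Most promoters flanking the domain stood lower than those of Meg3 and Dio3, while the sequence between the flanking genes and the domain read within the same part of the scale as its members. Between Begain and Dlk1 the summed level was 38% in siCon and 38.6% in siH19, and between Dio3 and Ppp2r5c it was 44.1% and 38%, beside 43.3% and 44.1% over the members. Of 13 neighbours on chromosome 12, 12 had a measured promoter and 9 of those were under 5% in both libraries, the Evl promoter among them at 2.99% and 2.40% and Yy1, a zinc-finger transcription factor gene, at 0.959% and 0.843%. Dio3os, transcribed away from Dio3 and with a window that overlaps that of Dio3, stood in the middle, at 38.3% and 35.4%. The Degs2 promoter read 17.2% and 15.6% and Begain 13% and 12.8%. The promoters of Slc25a29 and Slc25a47, and of Wars and Wdr25, share their cytosines, and none of the 12 was called.

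Most promoters measured in other imprinted genes stood from 20 to 80% in both libraries, as Meg3 and Dio3 and 22.7% of all promoters did. Their windows were set by the annotated gene start. Whether a window covers the parentally methylated region of its gene was not checked. Of the pair listed as paternally methylated, H19 itself read 30.0% in siCon and 21.1% in siH19. That difference had an adjusted p of 0.00775 by Fisher's exact test but was short of 10 points. Rasgrf1 read 24.6% and 30.4%. Of 14 genes listed as maternally methylated, 12 had a measured promoter, and 10 of those stood from 20 to 80% in both libraries. Outside that range were Nnat at 97.4% in both and Inpp5f at 0.561% and 0.460%. The 1 called was Kcnq1ot1, the noncoding RNA of another imprinted domain, which rose from 30.6% to 48.0% (17.3 points, interval 7.83 to 26.4 points, Fisher's exact test, adjusted p = 0.00453), with all 12 cytosines higher.

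**Figure D5:**
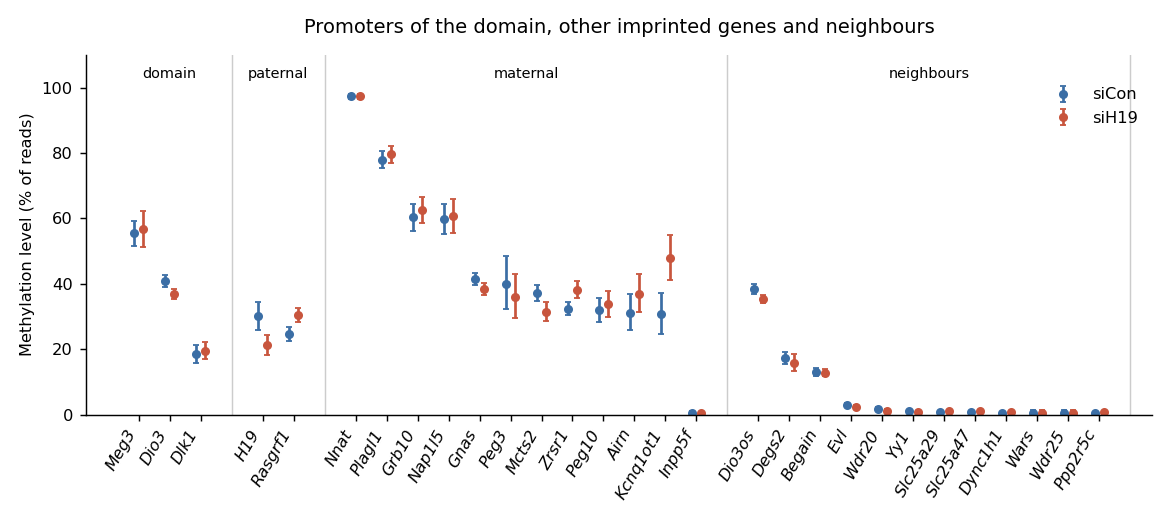
Summed methylation level (%) within 1 kb of the annotated gene start in siCon (blue) and siH19 (red), with 95% Wilson intervals. Shown are the domain, imprinted genes elsewhere listed as paternally or maternally methylated, and genes flanking the domain. Whether a window covers the parentally methylated region of its gene was not checked. Meg3 and Dio3 lie within the wide range of the other imprinted promoters, while 9 of the 12 flanking promoters lie under 5%.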

How the data were processed

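DNA methylation was measured by RRBS in 1 siCon and 1 siH19 myotube library. Per the labels and the study's methods, DNA was cut with TaqαI and MspI, size-selected, bisulphite-converted and sequenced. The authors' service provider demultiplexed with bcl2fastq 1.8.4 and aligned with Bismark in non-directional mode to mm10, trimming filled-in bases. The Bismark version and any removal of duplicates are not given in the sources used here. The deposited files give, for each CpG cytosine and strand, methylated and total read counts as text and a score, the authors' methylated share on a scale of 0 to 1000, used to check the counts.

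Cytosines were kept where both libraries had 5 or more reads and the position lay outside CCGG and TCGA, on GRCm38 with GENCODE vM21. Single cytosines, and reads summed over promoters, gene bodies and 1 kb tiles with at least 5 cytosines, were compared by two-sided Fisher's exact tests with Benjamini-Hochberg adjustment over all features of a kind (Python 3.11.15, SciPy 1.17.1, NumPy 2.4.6). A region was called at an adjusted p under 0.05 and 10 points, and a cytosine was strongly changed at an unadjusted p under 0.05 and 33 points. Levels carry Wilson and differences Newcombe 95% intervals. The libraries carried no molecular identifiers, so that reads may be PCR copies of the same molecule, and a Fisher test on summed reads treats reads as independent. Named were all 6 genes, the gap, called regions, the 3 strongly changed cytosines with the lowest p in each direction, any CpG strongly changed on both strands alike, and fixed lists of imprinted and flanking genes. Members and lists were chosen with earlier results of these data known. Scripts were tested on simulated data. Alternatives covered depth, cut sites, repeats, thresholds, windows, strand pooling and the Cochran-Mantel-Haenszel and quasi-binomial tests.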

Additional observations from a re-analysis of the deposited data

How the results depend on the processing

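No paired analysis was possible because each group had 1 library, and for the same reason no library could be left out. The level of the gap reversed to -0.0525 points with at least 10 reads per cytosine. The single call among gene bodies, Rian, went to 0 with at least 10 reads, with CCGG and TCGA cytosines included, without soft-masked repeats, with at least 20 points, and by the quasi-binomial and Cochran-Mantel-Haenszel tests, and became 2 with no minimum difference. Promoters called went from 0 to 1 with no minimum difference. The shares of all gene bodies and promoters called under these alternatives were not taken, so the counts have no background. The 13 strongly changed cytosines became 8 of 289 with at least 10 reads, 25 of 707 with cut sites included, 23 with at least 25 points, 3 with at least 50 points, 4 of 253 CpGs with strands summed, and 0 with an adjusted p. The share of all cytosines called under those settings was 0.773%, 1.42%, 1.52%, 0.346%, 0.743% and 0.00648%. Tiles called stayed at 0 under every alternative run. Of 45 alternatives for the members' levels, 41 lay inside the 95% interval of the reported difference. Outside were the Dio3 promoter (2.03 points) and Rian (-2.08 points) with at least 10 reads, and the Dlk1 body (1.07 points) and Meg3 promoter (-6.41 points) as means of cytosine levels. The cause was not tested. With 1 library per group no interval here covers variation between cultures, and the median depth of 19 and 21 reads limits what single cytosines can show.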

Other observations

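Other stretches of the domain, outside the listed genes and the gap, also stood between 20 and 80%. Between Mirg and the Dio3 promoter window, 461 cytosines stood at 35.4% (siCon) and 37.7% (siH19), 2.30 points apart with an interval from 1.17 to 3.44 points. Between Rian and Mirg, where many of the miRNA genes lie, 37 cytosines went from 48.1% to 62.3%, a summed difference of 14.2 points, while the matched-weight difference was -0.759 points. The hairpin of Mir323, in that stretch, held 12 measured cytosines at 76.7% and 77.2%. The hairpin of Mir1247, which lies across the upstream edge of the Dio3 promoter window, held 4 at 32.6% and 33.3%. Of 67 miRNA genes and 23 snoRNA genes from Dlk1 to Dio3, 25 and 2 had a measured cytosine in the hairpin or gene or within 500 bases of it.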
